A study of Mus musculus with 6 samples.

Results

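The dystrophin glycoprotein complex was followed here through 8 of its genes, *Dmd* (dystrophin), *Utrn* (utrophin), *Dag1* (dystroglycan), *Sgca*, *Sgcb* and *Sgcd* (α-, β- and δ-sarcoglycan), *Sspn* (sarcospan) and *Dtna* (α-dystrobrevin). Every non-control probe that the array's annotation gives to these symbols was taken, which made 32 probes among 56605 and 8 genes among 27307. The rule uses no measured value. *Dmd* had 10 probes, *Utrn* 8, *Dtna* 5, *Sgcd* 4, *Sgca* 2, and *Dag1*, *Sgcb* and *Sspn* 1 each.

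RNA came from whole myocardium of male C57BL/6J mice, 3 injected intravenously with an AAV that expressed wild-type nexilin (NEXN-WT, the control) and 3 with an AAV that expressed NEXN-S437E, in which glutamate replaces a serine to mimic phosphorylation, both under a CMV promoter, which is not restricted to cardiomyocytes. Nexilin is an actin-binding protein of the cardiac Z-disc and a substrate of the kinase CLK4. All 6 mice were *Clk4*-cKO, so both groups lacked *Clk4* in cardiomyocytes through tamoxifen and the MerCreMer recombinase under the α-MHC promoter, and no array of a mouse with intact *Clk4* was used here. Each heart was read on its own 1-colour Agilent array, and the labels give no age.

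The complex spans the cardiomyocyte membrane. Dystrophin holds cortical actin on the inside, dystroglycan binds laminin on the outside, and the sarcoglycans with sarcospan steady the link between them. Utrophin is the paralog of dystrophin and can take its place, while dystrobrevin and the syntrophins carry signalling proteins. Loss of dystrophin or of a sarcoglycan causes muscular dystrophy and dilated cardiomyopathy.

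Probes of dystrophin and utrophin are printed because the results on *Dmd* turn on them. The first *Dmd* probe below was well above background in the NEXN-S437E hearts and in none of the NEXN-WT hearts, the second is annotated to the RefSeq dystrophin transcript, and the third to the RefSeq utrophin transcript. The sequences are those of the array design, 5′ to 3′, 60 bases each.
*Dmd* A_55_P2167930, chrX:82220987-82221046 (mm9, plus strand): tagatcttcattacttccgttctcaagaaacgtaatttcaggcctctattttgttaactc
*Dmd* A_55_P2167922, chrX:81132417-81132476 (mm9, plus strand): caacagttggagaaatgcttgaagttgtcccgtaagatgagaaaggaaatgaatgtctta
*Utrn* A_55_P2212027, chr10:12221228-12221287 (mm9, minus strand): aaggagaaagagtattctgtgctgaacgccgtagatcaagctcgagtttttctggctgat
The first of these is annotated to a cDNA clone and to no RefSeq transcript. Exon, intron and UTR positions of the probes were not assigned, since no genome of this build was used here.

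Values below are log2 signals relative to the 75th percentile of the same array, and a fold change is NEXN-S437E over NEXN-WT on that log2 scale. They compare hearts for 1 probe at a time, since the brightness of different probes is not on a common scale. A probe was tested where either group had it well above background in all 3 hearts. Of the 32 probes, 20 were tested, covering all 8 genes, and 15 were well above background on all 6 arrays. The other 12 were not tested, 9 of them being well above background on no array.

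No member probe passed an adjusted p of 0.05 in the limma fit over all 22998 tested probes, where 0.178% passed. The methods' t-test called 0 of all 22998 probes, so its 0 member calls say nothing about the members. Limma with array weights called 3 of 20, beside 5294 of all probes. At an unadjusted p under 0.05 there were 4 member probes of 20, all higher with NEXN-S437E, against 17.0% of all tested probes (10.3% higher and 6.74% lower). A 2-fold change with that unadjusted p was reached by 1 member probe, against 2.52% of all (0.735% higher and 1.78% lower). In 3 member probes the groups did not overlap, all higher with NEXN-S437E, against 27.4% of all tested probes (18.1% higher and 9.28% lower). The median log2 fold change was 0.12 over the 20 member probes and 0.09 over all tested probes, with median sizes of 0.20 and 0.22. These counts include probes that were admitted because the group in which they are high was above background.

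**Figure D1:**
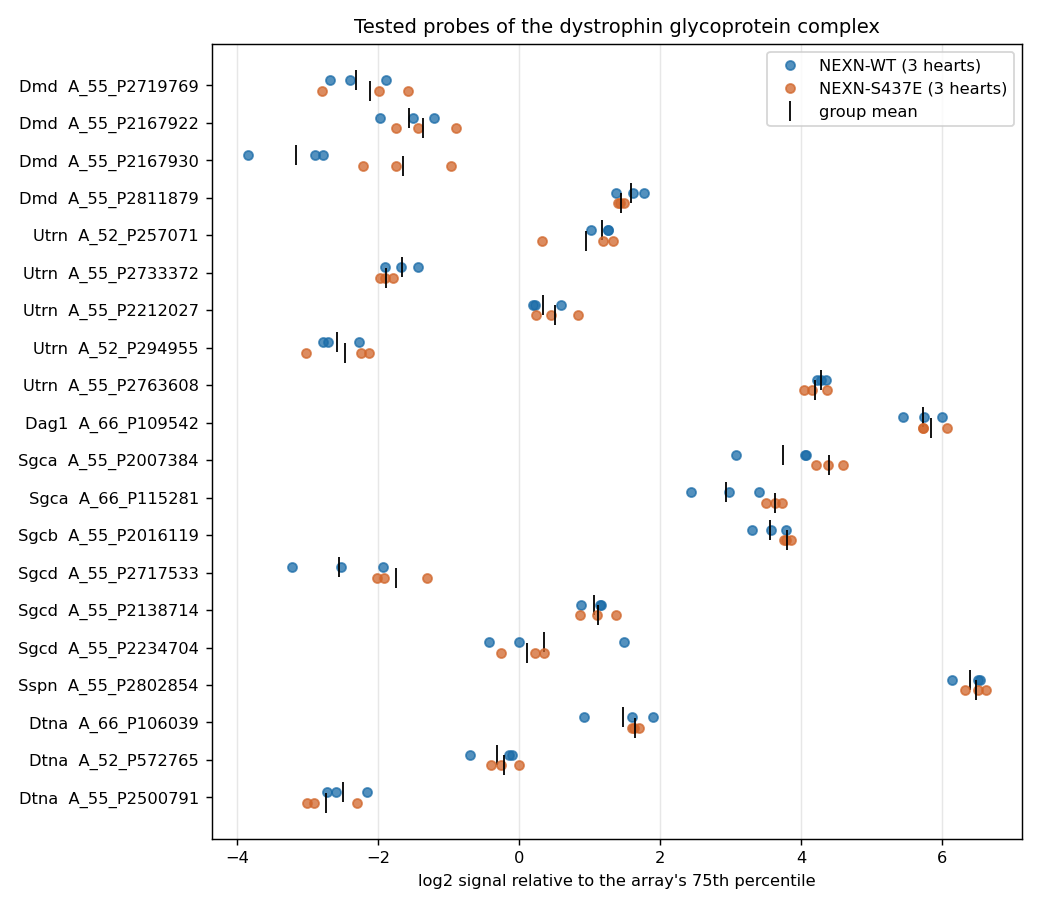
Each point is 1 heart, as the log2 signal of a tested probe relative to the 75th percentile of its array, with NEXN-WT in blue, NEXN-S437E in orange and a black tick at each group mean. The groups are separate in *Dmd* A_55_P2167930 and in both *Sgca* probes and overlap in the other 17 probes.

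The arrays shared 1 slide and 1 scan. All NEXN-WT arrays and NEXN-S437E replicate 1 lay in slide row 1, and NEXN-S437E replicates 2 and 3 in slide row 2. Every value given with the slide row as a block therefore compares NEXN-S437E replicate 1 alone with the NEXN-WT hearts. The 75th percentile of signal ran from 71.5 to 178 across arrays, 41.9% to 47.8% of spots were well above background and none was saturated. The NEXN-WT replicate 1 array stood furthest from its own group, with a mean absolute log2 difference of 0.41 against 0.24 to 0.35 for the other 5 arrays. All 8 cardiomyocyte markers were well above background on all 6 arrays, as were 2 of 8 skeletal muscle markers. The marker lists of smooth muscle (206 to 303 in NEXN-WT, 216 to 320 in NEXN-S437E, as summed signal in multiples of the 75th percentile), endothelial cells (109 to 148, 128 to 157), macrophages (120 to 148, 132 to 139), Schwann cells (2.73 to 3.98, 2.89 to 4.19) and skeletal muscle (2.72 to 3.66, 3.14 to 4.04) overlapped between the groups. Those of T cells (3.85 to 6.16, 1.45 to 1.93) and adipocytes (0.355 to 0.603, 0.685 to 1.25, none of 5 genes well above background on all 6 arrays) did not, nor did those of cardiomyocytes and fibroblasts given below. In whole myocardium, fewer cells of a type and less RNA per cell cannot be told apart.

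No *Dmd* probe passed the adjusted test, and 1 was above background in the NEXN-S437E hearts alone. The *Dmd* probe nearest the 3′ end of those tested, A_55_P2811879 (chrX:82449703-82449762), read 1.78, 1.61 and 1.38 in the NEXN-WT hearts and 1.48, 1.41 and 1.43 in the NEXN-S437E hearts. The NEXN-S437E hearts lay within the range of the NEXN-WT hearts. Its log2 fold change was -0.15 (SE 0.16, 95% interval -0.51 to 0.21, limma adjusted p = 0.622). Probe A_55_P2167922, printed above, read -1.21, -1.51 and -1.97 against -1.74, -1.44 and -0.89. The groups overlapped, with a log2 fold change of 0.20 (SE 0.27, interval -0.41 to 0.82, adjusted p = 0.704).

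A further *Dmd* probe towards the 5′ end, A_55_P2719769, read -1.89, -2.68 and -2.39 in NEXN-WT and -1.57, -1.98 and -2.80 in NEXN-S437E. It too overlapped, with a log2 fold change of 0.20 (SE 0.33, interval -0.56 to 0.96, adjusted p = 0.766), and it was well above background in 3 NEXN-WT and 2 NEXN-S437E hearts.

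The exception was A_55_P2167930, printed above. It read -3.84, -2.78 and -2.89 in the NEXN-WT hearts and -1.74, -2.21 and -0.97 in the NEXN-S437E hearts. It was well above background in none of the NEXN-WT hearts and in all 3 NEXN-S437E hearts, and the groups did not overlap. The fitted log2 fold change was 1.53 (SE 0.37, interval 0.68 to 2.38, unadjusted p = 0.00326, adjusted p = 0.131). Because the probe was not well above background in the control hearts, the signal was at least 2.60-fold higher with NEXN-S437E at this setting, each control heart being taken at the higher of its own signal and the dimmest signal well above background on its array. That limit was the array's dimmest signal for NEXN-WT replicate 1 and the probe's own signal for the other 2. This probe was tested only because the group in which it is high was above background, so a difference was built into its selection. The bound belongs to these 6 arrays and this background correction, since the fitted value was 1.19 without NEXN-WT replicate 1 or without NEXN-S437E replicate 3. With normexp background correction it was 0.60, and with the slide row as a block, which leaves NEXN-S437E replicate 1 alone against the NEXN-WT hearts, it was 1.43. The other 6 *Dmd* probes were not tested, 5 of them being well above background on no array.

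To ask whether probes of a gene moved differently, each probe was set against the mean of the other tested probes of its gene on the same array, which cancels any scaling of the array. Of 17 member probes with such a partner, 0 passed the adjusted p in limma (1 with array weights), against 0.0252% of 11893 probes, and 3 had an unadjusted p under 0.05, against 6.93%. All 3 involve probes admitted through the NEXN-S437E hearts, in which they are high, so nothing is read from that count. For *Dmd* A_55_P2167930 the value relative to its neighbours was higher by 1.44 with NEXN-S437E (SE 0.48, unadjusted p = 0.019, adjusted p = 0.572). For *Dmd* A_55_P2811879 it was -0.80 (SE 0.15, unadjusted p = 0.000909, adjusted p = 0.251), but there the mean of the others holds the dim probe just described. The other 2 *Dmd* probes gave -0.33 and -0.32 with intervals that held 0.

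**Figure D2:**
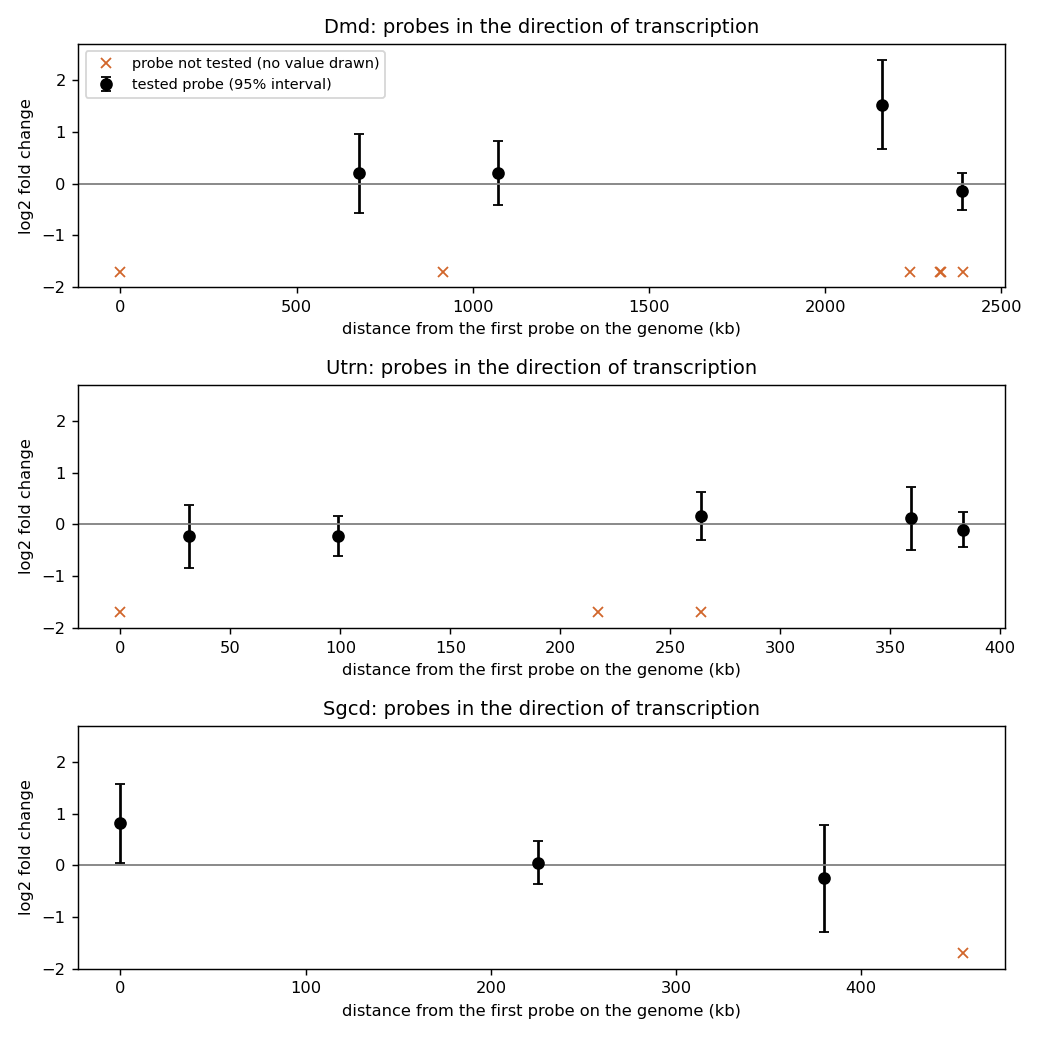
Points are log2 fold changes of tested probes with 95% intervals, placed by distance in kb from the first probe of the gene in the direction of transcription, for *Dmd*, *Utrn* and *Sgcd*. Crosses mark probes that were not tested and carry no value. In *Dmd* the probes at 677.8, 1072.2 and 2389.4 kb lie between -0.15 and 0.20. The point at 2160.7 kb is a probe not well above background in any NEXN-WT heart and tested only through the group in which it is high, for which the bound of 2.60-fold stands in place of the fitted value drawn.

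*Utrn*, which is known to rise in dystrophin-deficient muscle, overlapped between the groups in all 5 tested probes. Its probe nearest the 3′ end, A_55_P2763608 (chr10:12102004-12102063), read 4.28, 4.23 and 4.35 in NEXN-WT and 4.16, 4.04 and 4.37 in NEXN-S437E, a log2 fold change of -0.10 (SE 0.15, interval -0.44 to 0.25, adjusted p = 0.749). The internal probe A_55_P2212027, printed above, read 0.23, 0.60 and 0.20 against 0.83, 0.45 and 0.24, with a log2 fold change of 0.17 (SE 0.20, interval -0.29 to 0.63, adjusted p = 0.677). In A_55_P2763608 every NEXN-S437E heart lay outside the range of the NEXN-WT hearts, some below and 1 above it. In A_55_P2212027 the hearts of the groups were interleaved. A_52_P257071 read 1.02, 1.26 and 1.26 against 0.33, 1.20 and 1.32, so 1 NEXN-S437E heart alone lay below the controls, with a log2 fold change of -0.23 (SE 0.26, adjusted p = 0.656). Without that heart the value was 0.08. A_55_P2733372 read -1.90, -1.43 and -1.67 against -1.90, -1.97 and -1.79, a log2 fold change of -0.22 (adjusted p = 0.507). A_52_P294955 was at 0.12 (adjusted p = 0.827), and the other 3 *Utrn* probes were not tested.

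The balance of the paralogs was compared as the mean of the 5 tested *Utrn* probes minus the mean of the 4 tested *Dmd* probes on each array. It was 1.46, 1.73 and 1.84 in the NEXN-WT hearts (mean 1.68 ± 0.20, SD, n = 3) and 1.13, 1.37 and 1.03 in the NEXN-S437E hearts (1.18 ± 0.18, SD, n = 3). The groups differed by -0.50, with an exact two-sided permutation p of 0.1, the smallest that 3 hearts against 3 allow. The mean for *Dmd* holds A_55_P2167930, which was admitted through the hearts in which it is high, so the direction and the gap between the groups were partly built in and nothing is read from them. Over the probes well above background on all 6 arrays the difference was -0.12 (exact p = 0.6), and with 1 probe per gene it was 0.054 (exact p = 0.7). The size of the contrast within a heart has no meaning of its own, because the signals of different probes have no common scale.

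*Dag1* encodes both dystroglycan subunits, the laminin receptor of the complex. Its single probe, A_66_P109542 (chr9:108108324-108108383), read 5.44, 5.99 and 5.74 in NEXN-WT and 6.07, 5.72 and 5.72 in NEXN-S437E. The hearts overlapped, and the log2 fold change was 0.11 (SE 0.19, interval -0.33 to 0.56, adjusted p = 0.771).

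Among the sarcoglycans, *Sgca* read higher with NEXN-S437E in both of its probes without passing the adjusted test. Probe A_66_P115281 read 2.43, 3.40 and 2.97 in the NEXN-WT hearts and 3.63, 3.73 and 3.50 in the NEXN-S437E hearts. Probe A_55_P2007384 read 3.08, 4.07 and 4.05 against 4.60, 4.38 and 4.21. In both, every NEXN-S437E heart lay above every NEXN-WT heart, and NEXN-WT replicate 1 was the lowest. The log2 fold changes were 0.69 (SE 0.24, interval 0.13 to 1.24, unadjusted p = 0.0212, adjusted p = 0.228) and 0.66 (SE 0.28, interval 0.02 to 1.29, unadjusted p = 0.0446, adjusted p = 0.283).

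The *Sgca* probes lie side by side (chr11:94824357-94824537 and chr11:94824546-94824605) and read the same RNA, so they are not independent, and their difference from each other moved by 0.03 (SE 0.17). Without NEXN-WT replicate 1 the log2 fold changes were 0.44 and 0.33, with array weights both were 0.25, and with the slide row as a block they were 0.70 and 0.86. The summed signal of the 8 cardiomyocyte markers, as a multiple of the 75th percentile, was 2940 to 3935 in NEXN-WT and 4588 to 4814 in NEXN-S437E, again with no overlap. Its part in the *Sgca* values was not tested.

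*Sgcb* and *Sgcd* encode the core pair of the sarcoglycan assembly. The *Sgcb* probe A_55_P2016119 (chr5:74026579-74026638) read 3.30, 3.58 and 3.79 against 3.85, 3.76 and 3.79, a log2 fold change of 0.24 (SE 0.17, interval -0.14 to 0.62, adjusted p = 0.464). Its NEXN-S437E hearts lay close together, 1 of them above the highest NEXN-WT heart and the others among the NEXN-WT values. The log2 fold change was 0.11 without NEXN-WT replicate 1, 0.12 with normexp and 0.14 with quantile normalization or the authors' values.

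For *Sgcd*, the RefSeq probe A_55_P2138714 read 0.88, 1.16 and 1.14 against 1.38, 0.86 and 1.11, a log2 fold change of 0.05 (SE 0.18, adjusted p = 0.891). A_55_P2234704 read 1.49, -0.01 and -0.43 against -0.26, 0.22 and 0.36, with NEXN-WT replicate 1 far above the rest. Its log2 fold change of -0.25 (SE 0.45, adjusted p = 0.791) became 0.32 without that heart. The dimmer probe A_55_P2717533, the first in the direction of transcription, read -1.93, -2.53 and -3.21 against -2.02, -1.92 and -1.30.

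That *Sgcd* probe was well above background in 2 NEXN-WT and 3 NEXN-S437E hearts, so it too was tested only through the group in which it is high, and its values are a description. The groups overlapped by 1 heart. It had a log2 fold change of 0.81 (SE 0.33, interval 0.05 to 1.57, unadjusted p = 0.0398, adjusted p = 0.272), and set against the other *Sgcd* probes it was higher by 0.91 (SE 0.20, unadjusted p = 0.00272, adjusted p = 0.380). The log2 fold change was 0.36 with normexp, 0.54 with the slide row block and 0.48 without NEXN-WT replicate 3. The fourth *Sgcd* probe was well above background on no array.

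*Sspn*, a tetraspan-like membrane protein bound to the sarcoglycans, overlapped between the groups in its probe A_55_P2802854 (chr6:145913663-145913722). The hearts read 6.14, 6.53 and 6.50 in NEXN-WT and 6.61, 6.32 and 6.51 in NEXN-S437E, a log2 fold change of 0.09 (SE 0.17, interval -0.30 to 0.48, adjusted p = 0.793). Of the *Dtna* probes, A_66_P106039 read 0.92, 1.60 and 1.90 against 1.61, 1.70 and 1.63, with a log2 fold change of 0.18 (SE 0.24, interval -0.38 to 0.73, adjusted p = 0.718). The other tested *Dtna* probes were at 0.09 (A_52_P572765, adjusted p = 0.833) and -0.25 (A_55_P2500791, adjusted p = 0.594), and all 3 overlapped between the groups. Neither gene separated the groups. The signs for *Dag1* and *Sspn* turned negative under quantile normalization, normexp, the authors' values and array weights, at between -0.20 and -0.050. Without NEXN-WT replicate 1 they were negative too, at -0.030 and -0.033, as were *Dtna* A_66_P106039 at -0.099, *Dtna* A_52_P572765 at -0.099 and *Sgcd* A_55_P2138714 at -0.036. Without NEXN-S437E replicate 1 *Dag1* was at -0.0021 and *Sgcd* A_55_P2138714 at -0.078.

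**Figure D3:**
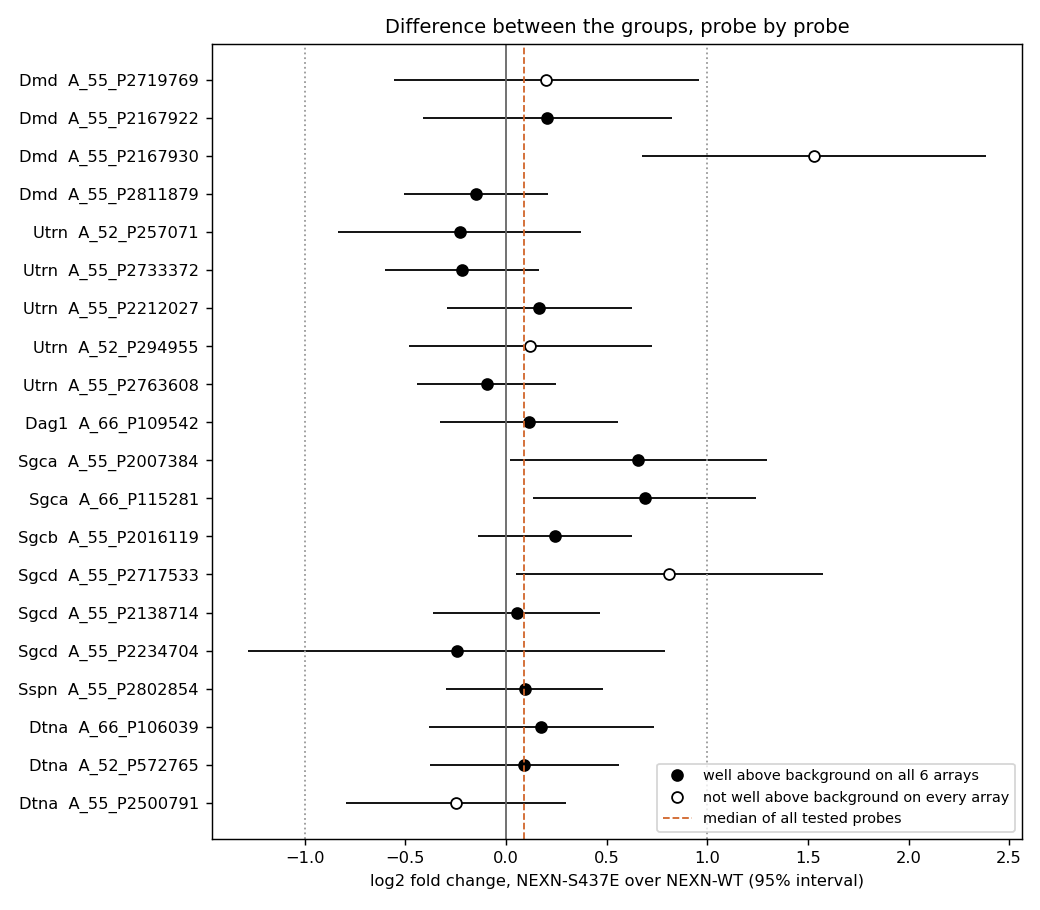
Log2 fold changes of the 20 tested member probes, NEXN-S437E over NEXN-WT, with 95% intervals from limma. Filled points were well above background on all 6 arrays and open points were not, the dashed line is the median of all tested probes at 0.09, and the dotted lines mark a 2-fold change. The intervals of *Dmd* A_55_P2167930, both *Sgca* probes and *Sgcd* A_55_P2717533 lie above 0, the *Dmd* probe and the *Sgcd* probe having been tested only through the group in which they are high.

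The genes around the complex were described with 1 probe per gene, the tested probe of highest mean, against a median of 0.07 over 13747 genes. No gene of these lists passed an adjusted p of 0.05 or the 2-fold threshold with all 6 arrays. For the 8 members the median was 0.10, with 6 higher and 2 lower, and without NEXN-WT replicate 1 it was -0.03, with 2 higher and 6 lower. *Sgce* (ε-sarcoglycan) was at -0.21, the syntrophin gene *Sntb2* at -0.42 and *Dtnb* (β-dystrobrevin) at 0.21, none past the test. Without NEXN-WT replicate 1 these were 0.061, -0.26 and 0.48, so the sign for *Sgce* rests on that heart, and *Dtnb* was 0.024 without NEXN-WT replicate 3.

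The matrix ligands of dystroglycan and biglycan had, of the lists described here, the median furthest from that of all genes. All 8 were tested and all were lower with NEXN-S437E, with a median log2 fold change of -0.31, 5 without overlap, against 11.2% of all genes lower without overlap, and 3 with an unadjusted p under 0.05, against 7.93% of all genes lower and 17.7% in either direction. *Bgn*, a proteoglycan that binds dystroglycan and sarcoglycans, read 3.80, 2.78 and 2.94 in NEXN-WT and 2.39, 2.17 and 2.14 in NEXN-S437E, a log2 fold change of -0.94 (SE 0.27, interval -1.55 to -0.33, adjusted p = 0.173). *Lamc1*, the laminin γ1 chain, read 6.78, 6.61 and 6.62 against 6.27, 6.12 and 6.29, at -0.45 (SE 0.14, adjusted p = 0.206). In both genes every NEXN-S437E heart lay below every NEXN-WT heart.

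*Agrn* (agrin) was at -0.38 (SE 0.15, adjusted p = 0.268) and *Lama2*, the laminin α2 chain that dystroglycan binds in muscle, at -0.41 (SE 0.20, interval -0.88 to 0.06). Without NEXN-WT replicate 1, *Lama2* was -0.20 and *Bgn* -0.63. *Bgn* passed the 2-fold threshold, with no adjusted p under 0.05, when NEXN-WT replicate 2 was left out (-1.14), and likewise for NEXN-WT replicate 3 (-1.06) or NEXN-S437E replicate 1 (-1.02). Without NEXN-WT replicate 1 the median of the ligands was -0.25, with 7 lower and 1 higher. The summed signal of 6 fibroblast markers was 659 to 901 in NEXN-WT and 569 to 617 in NEXN-S437E, with no overlap. The markers did not all separate the groups. *Dcn*, the brightest of them, had a log2 fold change of -0.08 and overlapped, as did *Tcf21* at -0.28. *Col1a1* (-1.82), *Pdgfra* (-0.86), *Dpt* (-0.79) and *Lum* (-0.73) were lower without overlap. The part of the fibroblast markers in the ligand values was not tested.

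Of 13 membrane-side partners 10 were tested, 9 higher and 1 lower, with a median of 0.18, or 0.02 (5 higher, 5 lower) without NEXN-WT replicate 1. The smallest p values there belonged to *Aqp4*, a water channel anchored through syntrophin (0.42), *Ank2*, ankyrin-B (0.27), and *Sync*, syncoilin (0.29, or 0.12 without NEXN-WT replicate 1). Of 17 genes for the glycosylation of dystroglycan, which lets it bind laminin, 16 were tested, 12 higher and 4 lower, with a median of 0.10, or 0.050 (10 higher, 6 lower) without NEXN-WT replicate 1. *Rxylt1* was at 0.38, *Dpm1* at 0.29 and *B4gat1* at 0.27, none past the test. With the percentile taken over detected probes, which lowered every fold change by 0.08, 8 of these 16 genes were higher and 8 lower.

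The integrin and vinculin linkage, the parallel tie between matrix and actin, had 8 of 8 genes tested, 3 higher and 5 lower, with a median of -0.04, or 0.0055 (4 higher, 4 lower) without NEXN-WT replicate 1. *Itga7*, the laminin-binding integrin of muscle, was at 0.45 (SE 0.19, interval 0.00 to 0.89, unadjusted p = 0.0497, adjusted p = 0.293). Its hearts read 5.41, 5.98 and 5.93 in NEXN-WT and 6.39, 6.14 and 6.13 in NEXN-S437E, higher without overlap, as in 18.7% of all genes. Without NEXN-WT replicate 1, the lowest of them, *Itga7* was at 0.26 (unadjusted p = 0.104). *Tln2* at 0.22 (0.10 without NEXN-S437E replicate 2, 0.40 without NEXN-S437E replicate 1) and *Parva* at -0.22 (-0.021 without NEXN-WT replicate 1, -0.00098 without NEXN-S437E replicate 1) overlapped.

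**Figure D4:**
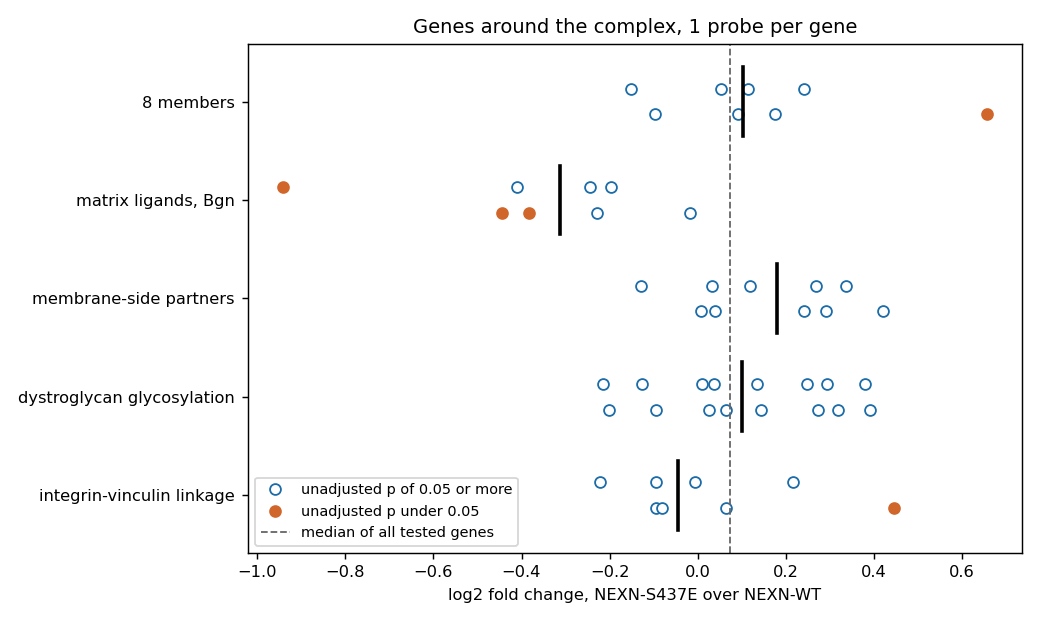
Each point is a gene, placed by its log2 fold change (NEXN-S437E over NEXN-WT) with 1 probe per gene, and the black bars are list medians. Filled points have an unadjusted p under 0.05 in limma, and the dashed line is the median of all tested genes at 0.07. The 8 matrix ligands all lie below 0.

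Over the 6 hearts, the signal of *Dmd* A_55_P2811879 was most similar to those of *Rora*, *Nfat5*, *Camsap2*, *A230048O21Rik* and *Lpin3* among 12915 genes, with Pearson's r from 0.988 to 0.994. These values describe 6 points that share arrays and scaling and were the highest of many, so no test was attached to them.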

How the data were processed

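Whole myocardium of 3 NEXN-WT and 3 NEXN-S437E *Clk4*-cKO mice was profiled on 1-colour Agilent 8x60K arrays. The authors deposited background-subtracted signal intensities from Feature Extraction 10.7.1.1 (linear, with no scaling across arrays), and a series table of normalized log2 values whose normalization is not given in the sources used here. Coordinates of probes are those of the files (mm9).

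Control and outlier spots were left out, spots were averaged per probe, and the 75th percentile of each array was subtracted from log2 intensities. A probe was kept where either group had it well above background in all 3 hearts, and limma 3.58.1 was fitted in R 4.3.3 (lmFit, then eBayes), with Benjamini-Hochberg adjustment over all tested probes. Thresholds were an adjusted p of 0.05, and the methods' 2-fold change with an unadjusted p of 0.05. The scripts were tested on simulated data. Replicate numbers were taken from the sample titles. The number of arrays limits the precision.

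Named were all member probes, the 3 genes of smallest p in each pathway list, and the 5 genes whose signal was closest to that of the *Dmd* probe of highest mean. *Lama2* was added after its values were seen. Some genes of the pathway lists are not reported here. Marker lists covered cardiomyocytes, fibroblasts, skeletal and smooth muscle, endothelial cells, macrophages, T cells, Schwann cells and adipocytes. The members and lists were chosen with earlier results of these data known. Alternatives covered normalization, background, probe filters, the methods' t-test, blocks for replicate number and slide row, array weights, an intensity trend, 1 probe per gene, a 1.5-fold threshold and leaving out each array. List medians without NEXN-WT replicate 1 and with the percentile over detected probes, and list genes with each array left out, were chosen after seeing the data. The log2 columns that the authors deposited were used only as an alternative.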

Additional observations from a re-analysis of the deposited data

How the results depend on the processing

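No member probe passed the adjusted p under any alternative but array weights, which called 3 (*Dmd* A_55_P2167930 at 1.40, adjusted p = 0.0143; *Sgcd* A_55_P2717533 at 1.01, adjusted p = 0.0132; *Utrn* A_55_P2733372 at -0.39, adjusted p = 0.0296) beside 5294 probes in all, and 1 probe in the comparison within genes. The 2-fold count of 1 was 0 with normexp, with the filter on all 6 arrays and with 1 probe per gene. It was 2 with array weights and 4 at 1.5-fold. With each array left out it was 1 to 2, the 2 arising without NEXN-WT replicate 1. Shares over all probes at these settings are not given here, so nothing about the members is read from these counts. *Utrn* minus *Dmd* ran from -0.55 to 0.054 over 10 alternatives other than leaving out arrays, the upper end with 1 probe per gene (exact p = 0.7). It was -0.61 to -0.42 with each array left out.

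Over all probes the 41 adjusted calls became 27 with quantile normalization, 23 with normexp, 34 with the percentile over detected probes, 28 with the authors' values, 8 without a filter, 23 with the filter on all 6 arrays, 26 with the slide row block, 88 with an intensity trend, 0 with the methods' t-test, and 12 to 135 with each array left out. The highest was without NEXN-WT replicate 1. Same-numbered arrays correlated at -0.15, -0.03 and -0.18 and none correlated best with its own number. These values gave no sign that the numbers pair the hearts, but so few arrays cannot exclude it. The replicate block left the member counts at 0 adjusted and 1 at 2-fold and gave 52 calls over all probes.

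Among single probes, 328 values kept their direction and side of the threshold, 32 reversed and 3 came to pass it. *Sspn* was -0.12 with quantile normalization, -0.074 with normexp, -0.12 with the authors' values and -0.050 with array weights. *Dag1* was -0.072, -0.076, -0.071 and -0.20 in the same order. With normexp, *Dtna* A_55_P2500791 was 0.10 and *Utrn* A_55_P2733372 was 0.14. *Sgcd* A_55_P2138714 was -0.025 with the percentile over detected probes. With the slide row block, *Dtna* A_52_P572765 was -0.091 and *Dmd* A_55_P2167922 was -0.18. With array weights, *Dtna* A_52_P572765 was -0.074, *Sgcd* A_55_P2138714 -0.092, *Utrn* A_52_P294955 -0.0016, *Utrn* A_55_P2212027 -0.19, *Sgcd* A_55_P2234704 0.26 and *Utrn* A_55_P2763608 0.012. With each array left out, the ranges that crossed 0 were -0.42 to 0.079 for *Utrn* A_52_P257071, -0.047 to 0.40 for *Utrn* A_52_P294955, -0.10 to 0.20 for *Dtna* A_52_P572765, -0.078 to 0.18 for *Sgcd* A_55_P2138714, -0.028 to 0.40 for *Dmd* A_55_P2167922, -0.64 to 0.32 for *Sgcd* A_55_P2234704, -0.074 to 0.54 for *Dmd* A_55_P2719769, -0.033 to 0.17 for *Sspn*, -0.10 to 0.39 for *Dtna* A_66_P106039 and -0.030 to 0.25 for *Dag1*. The cause of these changes was not tested.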
